A study of Mus musculus with 6 samples.

Results

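Lipins and the enzymes of triglyceride assembly were followed through 8 genes, Lpin1, Lpin2, Lpin3, Gpam, Agpat2, Dgat1, Dgat2 and Mogat1, in the liver of newborn mice. The members are known steps of this pathway that were chosen by their signals on these 6 arrays, with the difference between the genotypes in view, so their values are a description and carry no test. They are 8 of 19057 genes with a probe, and every probe that the platform annotation assigns to one of them was taken, 16 of 45281. RefSeq places Lpin1 on chromosome 12, Lpin2 on 17, Lpin3 and Agpat2 on 2, Gpam on 19, Dgat1 on 15, Dgat2 on 7 and Mogat1 on 1. The groups were 3 Igf2 KO arrays and 3 wild-type (WT) arrays, all from newborn pups of a mixed 129/ c57Bl/6 background. The product of Igf2 is a fetal growth factor related to insulin, which the liver secretes before birth. How Igf2 was inactivated, from which parent the allele came, and whether an array holds 1 pup or a pool are not in the labels. P-values therefore measure only how far these samples differ from each other, and part of that may be technical. Liver total RNA was hybridised to Illumina BeadChips, and signals are given as deposited, on a linear scale, unless called log2.

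Triglyceride is built on a glycerol phosphate backbone. Gpam encodes the mitochondrial acyltransferase that adds the first acyl chain, and Agpat2 an acyltransferase of the endoplasmic reticulum that adds the next and so makes phosphatidic acid. Lipins are phosphatidate phosphatases that turn phosphatidic acid into diacylglycerol, and Dgat1 and Dgat2 encode unrelated enzymes that add the last acyl chain. Mogat1 encodes a monoacylglycerol acyltransferase that reaches diacylglycerol by another route. Lipin 1 also acts in the nucleus of hepatocytes as a coactivator with PGC-1 alpha and PPAR alpha, and its gene is known to respond to fasting and glucocorticoids. Around birth the liver changes from a supply of glucose to one of milk fat.

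Lpin1 was far higher in Igf2 KO livers, and the 2 acyltransferase genes Agpat2 and Dgat2 were lower. Lpin2 and Dgat1 were moderately higher, and the Gpam values of both genotypes overlapped. Lpin3 and Mogat1 were at or near background. On the scale of log2 intensity, the difference of Igf2 KO minus WT was 3.14 ± 0.50 for Lpin1, 0.53 ± 0.14 for Lpin2, 0.57 ± 0.14 for Dgat1, -0.13 ± 0.15 for Gpam, -0.70 ± 0.082 for Dgat2 and -0.91 ± 0.11 for Agpat2 (limma's moderated SE, n = 3 each). The other genes of the pathway were tested, in lists chosen with earlier results of these data known, so the list shares are a description. Of 5 measured genes of glycerol and glycerol phosphate handling, 3 fell, where 8.49% of all 11346 genes did. Of 10 measured partners and regulators of lipin 1, 2 rose, both of them PGC-1 coactivator genes, and 4 fell. Among all genes 8.23% rose and 8.49% fell.

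The RefSeq promoter table (GRCm38.p6) held 6 of the 8 members. The 250 bases upstream of the listed start are shown for both lipin genes that were higher, for Agpat2 as a member that was lower, and for Ppargc1a, which encodes PGC-1 alpha and whose values lay close to those of Lpin1. The windows are chr12:16610967-16611216 (minus strand) for Lpin1, chr17:71183282-71183531 (plus strand, the first of 3 listed starts) for Lpin2, chr2:26604418-26604667 (minus strand) for Agpat2 and chr5:51567726-51567975 (minus strand) for Ppargc1a. Capitals mark matches on either strand to AGAACA (a glucocorticoid receptor half-site), TGACGTCA (a full cAMP response element), TGACG (its half-site), CACGTG (an E-box) or CCAAT.
Lpin1: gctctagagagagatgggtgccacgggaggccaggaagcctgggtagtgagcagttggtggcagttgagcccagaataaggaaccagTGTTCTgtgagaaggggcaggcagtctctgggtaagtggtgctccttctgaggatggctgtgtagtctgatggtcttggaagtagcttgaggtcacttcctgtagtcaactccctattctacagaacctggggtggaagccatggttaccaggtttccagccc
Lpin2: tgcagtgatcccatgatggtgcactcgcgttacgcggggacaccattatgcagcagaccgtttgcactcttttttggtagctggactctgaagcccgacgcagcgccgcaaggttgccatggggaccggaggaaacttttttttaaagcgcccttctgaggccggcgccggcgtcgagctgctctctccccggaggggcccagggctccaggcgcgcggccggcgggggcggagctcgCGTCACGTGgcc
Agpat2: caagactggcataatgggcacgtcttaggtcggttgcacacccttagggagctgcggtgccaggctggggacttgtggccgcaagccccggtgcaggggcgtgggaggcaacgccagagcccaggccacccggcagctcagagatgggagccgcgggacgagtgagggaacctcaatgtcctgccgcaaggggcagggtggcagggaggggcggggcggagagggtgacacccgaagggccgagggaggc
Ppargc1a: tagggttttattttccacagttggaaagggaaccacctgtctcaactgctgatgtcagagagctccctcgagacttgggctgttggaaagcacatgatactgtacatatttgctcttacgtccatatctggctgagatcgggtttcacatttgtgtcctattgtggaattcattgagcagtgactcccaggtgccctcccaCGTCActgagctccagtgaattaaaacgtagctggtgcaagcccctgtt

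The Lpin1 window held 1 match, to the glucocorticoid half-site, which begins at position -163 from the start. Of 32851 windows of the same length in the table, 16.1% held that motif. In the window of the first Lpin2 start a cAMP half-site and an E-box overlapped, beginning at positions -12 and -9, and in the Ppargc1a window the cAMP half-site began at position -49. The half-site occurred in 17.8% of windows, the E-box in 6.02%, CCAAT in 33.8% and the full element in 1.55%. The other Lpin2 starts differed: the second held 0 of the 5 motifs, and the third held a glucocorticoid half-site at -203 and 3 CCAAT matches. The Agpat2 window also held 0 of the 5. Which start these livers used was not measured, and a match describes the letters alone.

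The arrays carried liver RNA by their markers. Signals of all 9 hepatocyte markers were present, with a sum of 121093 to 123227 in Igf2 KO and 124314 to 126681 in WT, and limma called 0 of the 9 (1 had an unadjusted p under 0.05). Most of that sum came from Ahsg, Apoa1, Apoa2, Trf and Ttr, near the top of the signal range, so it says little about the share of hepatocytes. Alb had only 413.0 to 481.9 in Igf2 KO and 443.7 to 528.2 in WT. Igf2 itself had signals of 9337.3, 11865.8 and 9676.2 in Igf2 KO, against 19804.8, 19194.5 and 18656.0 in WT, and so kept 53.6% of its WT mean. The labels do not tell whether its probe can report the loss. Knockout arrays 1 and 2 carried lung transcripts, and the lung markers of knockout array 3 were mixed. Sftpc, a surfactant protein gene, had signals of 2573.6, 6005.5 and 66.4 in Igf2 KO, against 10.7, 8.4 and 1.6 in WT. Scgb1a1, a gene of airway secretory cells, had 2287.1, 7899.9 and 42.9 in Igf2 KO, against 1.0, -2.6 and 8.1 in WT. Both were above background on 3 of 3 knockout arrays and 0 WT arrays. On knockout array 3 Ager was above WT too (105.3 against 60.3 to 84.7). Sftpd was below WT on that array (62.4 against 136.1 to 174.5), and Napsa was within the WT range (404.3). The summed signal of all 10 lung markers was 8929, 23241 and 691.5 in Igf2 KO, against 642.7 to 742.5 in WT, where Napsa alone gave 404.0 to 483.7. The other 5 markers absent from WT (Cldn18, Lamp3, Nkx2-1, Sftpa1 and Sftpb) were detected on knockout arrays 1 and 2 and not on knockout array 3. The pancreas and gut gene Reg1 was high on the same arrays, at 806.0, 2134.6 and 51.6 in Igf2 KO against 6.5 to 13.8 in WT, although 5 of 8 pancreas markers with a probe (Prss2 among them) were detected on no array. Intestinal markers summed to 277.5, 669.3 and 39.7 in Igf2 KO and to 1.0 to 23.1 in WT. None of the 6 adipocyte markers with a probe was detected on any array (Adipoq, Fabp4, Lep, Plin1, Retn and Ucp1), and summed muscle markers overlapped, at 226.9 to 319.1 in Igf2 KO and 242.3 to 277.7 in WT. Summed erythroid markers were 25755 to 28967 in Igf2 KO and 24096 to 24877 in WT. Summed endothelial markers were 3369 to 3862 in Igf2 KO and 2563 to 3032 in WT, and summed macrophage markers 2220 to 2406 in Igf2 KO and 2531 to 3277 in WT. The part of these other cells in the results was not tested. In whole liver, fewer cells of a type and less RNA per cell cannot be told apart. Xist, a transcript of the inactive X, was 1984.2, 1822.5 and 17.9 in Igf2 KO, against 1017.5, 4.1 and 5.4 in WT, so it was high on 2 knockout arrays and 1 WT array. The Y-linked genes Eif2s3y, Kdm5d and Uty were detected on every array of both genotypes. Eif2s3y had 684.9, 619.2 and 1054.7 in Igf2 KO, against 886.6, 925.3 and 1084.5 in WT. Whether an array holds RNA of both sexes was not tested. The sex score used below is the mean log2 intensity of these Y-linked genes minus that of Xist.

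**Figure D1:**
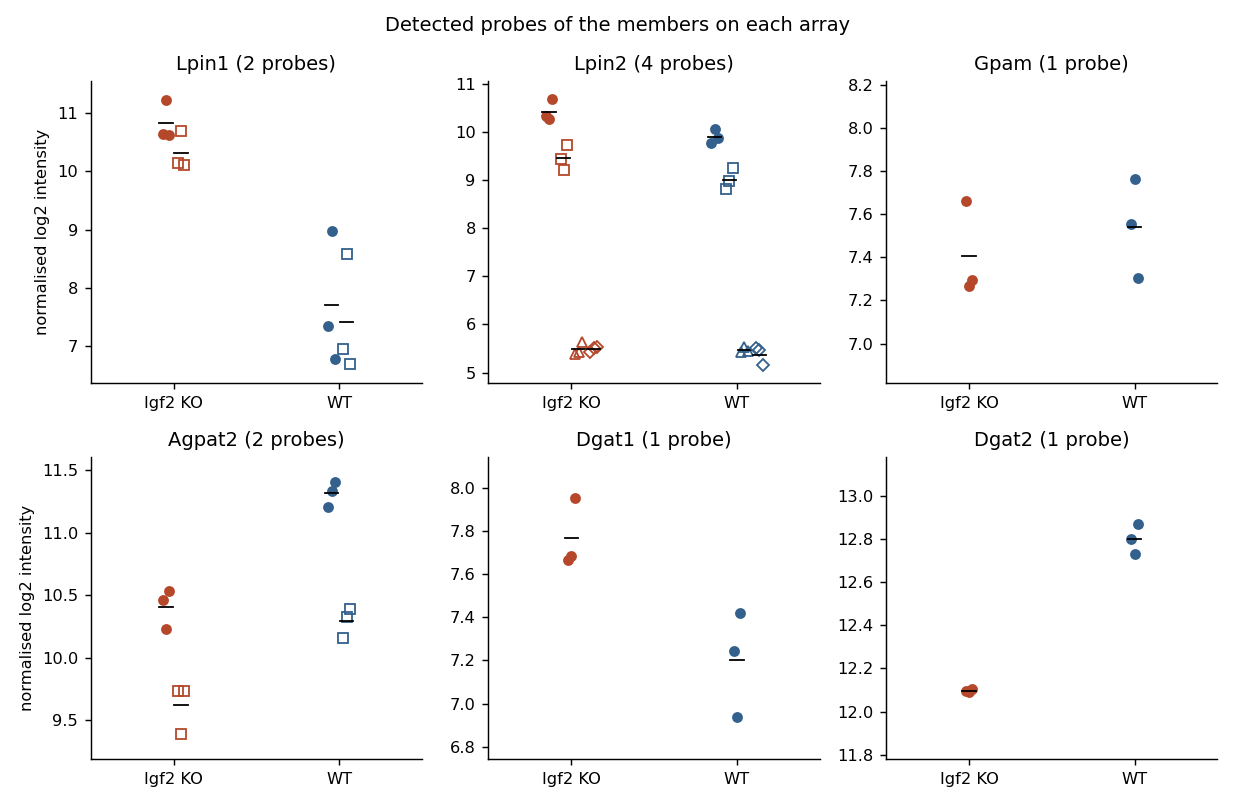
Normalised log2 intensity (vertical axis) of each detected probe of 6 members in Igf2 KO (left, 3 arrays) and WT (right, 3 arrays). Symbols separate probes of a gene and short lines are group means. Lpin1 lies above and Agpat2 and Dgat2 lie below WT on each knockout array, and Gpam overlaps.

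Of the 8 members, 6 passed the filter on dim probes, a detection p under 0.05 on at least 3 arrays. In the fit across 11346 genes, 3 of these 6 were past an adjusted p of 0.05 on the higher side and 2 on the lower side, where 8.23% and 8.49% of all genes were. The same 3 and 2 had groups that did not overlap, as did 20.8% and 18.3% of all genes. Since the members were chosen with this contrast known, nothing is read from these counts.

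Gpam, which opens the pathway, had signals of 186.3, 138.5 and 141.4 on knockout arrays 1, 2 and 3, against 172.3, 201.6 and 142.4 on WT arrays 1, 2 and 3. The groups overlapped, and the knockout mean was 90.3% of the WT mean. A further Gpam probe was above background on 0 of 6 arrays. Agpat2, mutated in a form of congenital lipodystrophy in humans, had signals of 1395.4, 1183.8 and 1463.8 in Igf2 KO, against 2354.5, 2572.1 and 2704.0 in WT. Each knockout array was below each WT array, and 53.0% of the WT mean was left. The second Agpat2 probe gave 833.0, 654.1 and 835.1 in Igf2 KO, against 1123.3, 1270.0 and 1326.3 in WT, or 62.4% of the WT mean. Both Agpat2 probes were lowest on knockout array 2, which also had the highest lung marker sum.

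Lpin1 had signals of 1581.3, 2382.4 and 1568.8 in Igf2 KO, against 147.2, 486.6 and 93.4 in WT. The lowest knockout array lay well above the highest WT array, and the ratio of mean signals was 7.61. A second probe gave 1111.8, 1642.5 and 1088.1 in Igf2 KO, against 107.5, 365.2 and 87.0 in WT, a ratio of 6.87. The annotation assigns both probes to different RefSeq transcripts of Lpin1, and they put the 6 arrays in the same order. Another 2 Lpin1 probes were above background on 0 of 6 arrays. The log2 difference of the brighter probe was the 11th highest among 11346 genes. Both of these Lpin1 probes were highest on knockout array 2, which also had the highest lung marker sum. On knockout array 3, where Sftpc and Scgb1a1 were far lower than on knockout array 1 but above WT, the Lpin1 signal was about that of knockout array 1. The part of lung RNA in this was not tested. With a score of the lung markers as a covariate the Lpin1 log2 difference was 2.83 ± 0.74 (limma SE). Without knockout arrays 1 and 2 the log2 difference was 2.93 ± 0.78 (limma SE, where the lone knockout array is assumed to vary like WT).

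Lpin2, which encodes the lipin known for its high liver expression, had signals of 1267.8, 1213.9 and 1625.0 in Igf2 KO, against 850.9, 1053.9 and 919.4 in WT. The groups did not overlap on this probe, with a ratio of means of 1.45. On a second probe the signals were 676.0, 577.2 and 832.5 in Igf2 KO, against 433.3, 489.2 and 589.4 in WT, and these overlapped. The other 2 Lpin2 probes were dim, at 26.3 to 34.1 in Igf2 KO and 19.6 to 30.6 in WT, and overlapped. With the mean of all 4 probes the log2 difference was 0.28, against 0.53 for the brightest probe. Lpin2 was highest on knockout array 3, the knockout array with the lowest lung marker sum, and the log2 difference was 0.78 without the other 2 knockout arrays. Lpin3, the third lipin gene, had signals of 9.2, 16.7 and 14.8 in Igf2 KO, against 8.6, 7.2 and 11.6 in WT. It was above background on 2 knockout arrays and 0 WT arrays, so it missed the filter by 1 array.

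Dgat1 had signals of 186.9, 190.1 and 231.7 in Igf2 KO, against 135.7, 106.7 and 155.7 in WT. All 3 knockout arrays were above all 3 WT arrays, and the ratio of means was 1.53. Dgat2 had signals of 4353.8, 4348.2 and 4390.5 in Igf2 KO, against 7105.5, 6774.5 and 7469.7 in WT. Here the knockout arrays were nearly identical and 61.3% of the WT mean was left. The genes of both terminal acyltransferases thus differed between genotypes in opposite directions. Mogat1 was above background on 0 of 6 arrays, with signals of -3.2 to -1.9 in Igf2 KO and -7.0 to 0.8 in WT. The deposited IDs of this probe differ and the other ID has no single gene assigned, so these values may not report Mogat1.

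**Figure D2:**
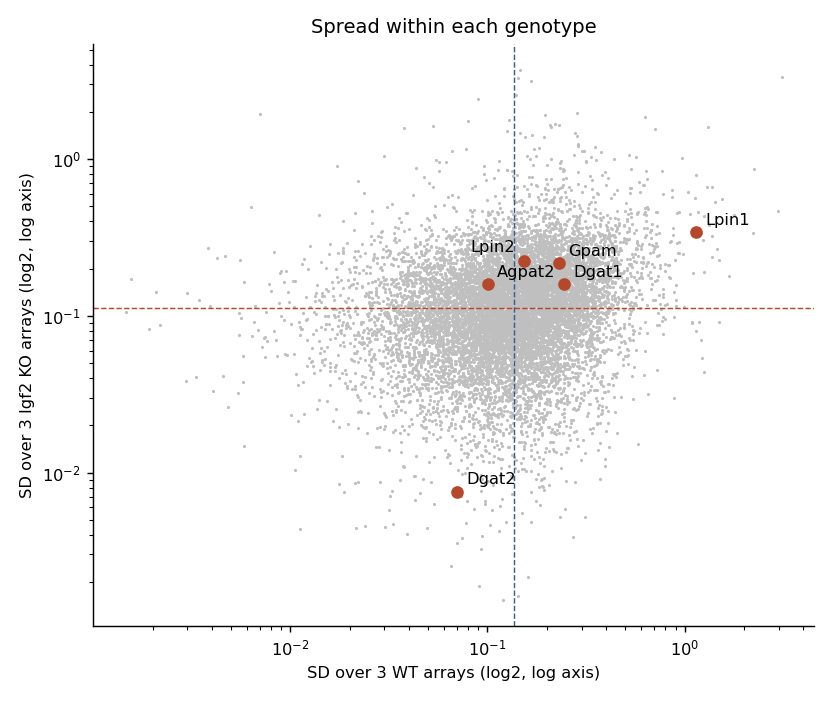
Standard deviation of log2 intensity over 3 Igf2 KO arrays (vertical, log axis) and over 3 WT arrays (horizontal, log axis) for 11346 genes in grey and 6 members as larger labelled points. Dashed lines are the medians over all genes. Lpin1 lies far to the right (WT SD 1.14) and Dgat2 near the bottom (knockout SD 0.0076).

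The members also differed in how far arrays of 1 genotype lay apart, given here as a description of the same 6 arrays. The SD of Lpin1 log2 intensity was 0.34 over the knockout arrays and 1.14 over the WT arrays, where the median gene had 0.11 and 0.14. Only 0.238% of genes had a WT SD as high as Lpin1. The highest WT array had 5.21 times the signal of the lowest, and the highest knockout array 1.52 times. Dgat2 stood at the other end, with an SD of 0.0076 in Igf2 KO and 0.070 in WT, and 99.6% of genes had a knockout SD as high or higher. For Lpin2, Gpam, Agpat2 and Dgat1 the SDs ran from 0.16 to 0.22 in Igf2 KO and 0.10 to 0.25 in WT.

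**Figure D3:**
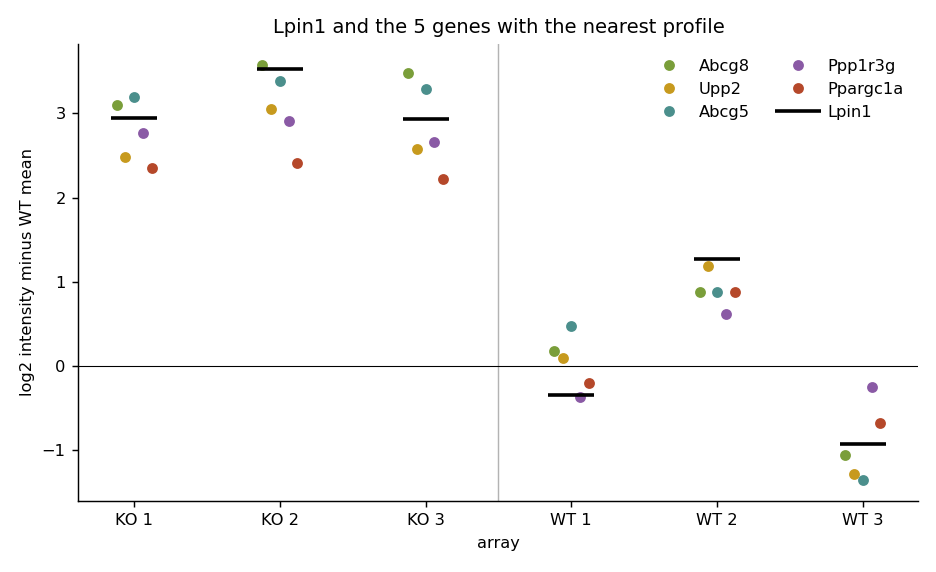
Log2 intensity minus the WT mean of the same gene (vertical axis) on each array (horizontal axis) for Lpin1 (black bars) and the 5 genes nearest to it. WT array 2 is the highest WT array for Lpin1 and for all 5.

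The genes with the profile nearest to Lpin1 were found by the root mean square difference of 6 log2 values, each taken relative to its gene's WT mean. Abcg8 came first at 0.36, then Upp2 at 0.39, Abcg5 at 0.46, Ppp1r3g at 0.48 and Ppargc1a at 0.63, where the median of 11345 genes was 2.31. Retreg1 was just outside the 5 at 0.63. Abcg5 and Abcg8 form the sterol exporter of the canalicular membrane, Upp2 encodes a uridine phosphorylase, and Ppp1r3g a glycogen targeting subunit of protein phosphatase 1. All 5 had WT array 2 as their highest WT array, as Lpin1 did. Abcg8 had signals of 955.9, 1332.7 and 1239.8 in Igf2 KO, against 111.6, 192.5 and 38.5 in WT. Upp2 had 2988.5, 4435.4 and 3191.6 in Igf2 KO, against 559.4, 1208.8 and 205.3 in WT. A small distance describes 6 arrays and was what selected these genes.

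Among partners and regulators of lipin 1, Ppargc1a was one of those 5 genes. Its signals were 787.3, 819.0 and 718.6 in Igf2 KO, against 120.8, 274.6 and 82.7 in WT. It rose by 2.33 ± 0.35 on the log2 scale (SE, limma adjusted p = 0.0049, higher on 3 of 3 knockout arrays). Ppargc1b, the gene of the related coactivator PGC-1 beta, had 822.0, 943.3 and 1007.1 in Igf2 KO, against 317.0, 479.7 and 436.0 in WT, and rose by 1.15 ± 0.16 (limma adjusted p = 0.0036). Nr3c1, the glucocorticoid receptor gene, had 39.2, 49.8 and 38.7 in Igf2 KO, against 81.3, 90.8 and 69.2 in WT, and fell by 0.72 ± 0.12 (limma adjusted p = 0.0077). All knockout values of these 3 genes lay outside the WT range. Srebf1, the gene of the lipogenic factor SREBP-1 (-0.86 ± 0.19, limma adjusted p = 0.024), Srebf2, that of its relative for sterol genes (-0.41 ± 0.11, 0.039), and Ppara, that of the nuclear receptor PPAR alpha (-0.43 ± 0.12, 0.045), also fell. Srebf1 was dim, with 22.2, 37.6 and 21.3 in Igf2 KO against 82.6, 50.9 and 53.2 in WT. Altogether 2 of 10 measured genes of this list rose and 4 fell, with a median log2 difference of -0.20, where 8.23% and 8.49% of all genes did and the median over all genes was 0.022. Rptor, Mtor, Cnep1r1 and Creb1 did not pass, with differences of 0.27, -0.19, -0.22 and -0.078.

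**Figure D4:**
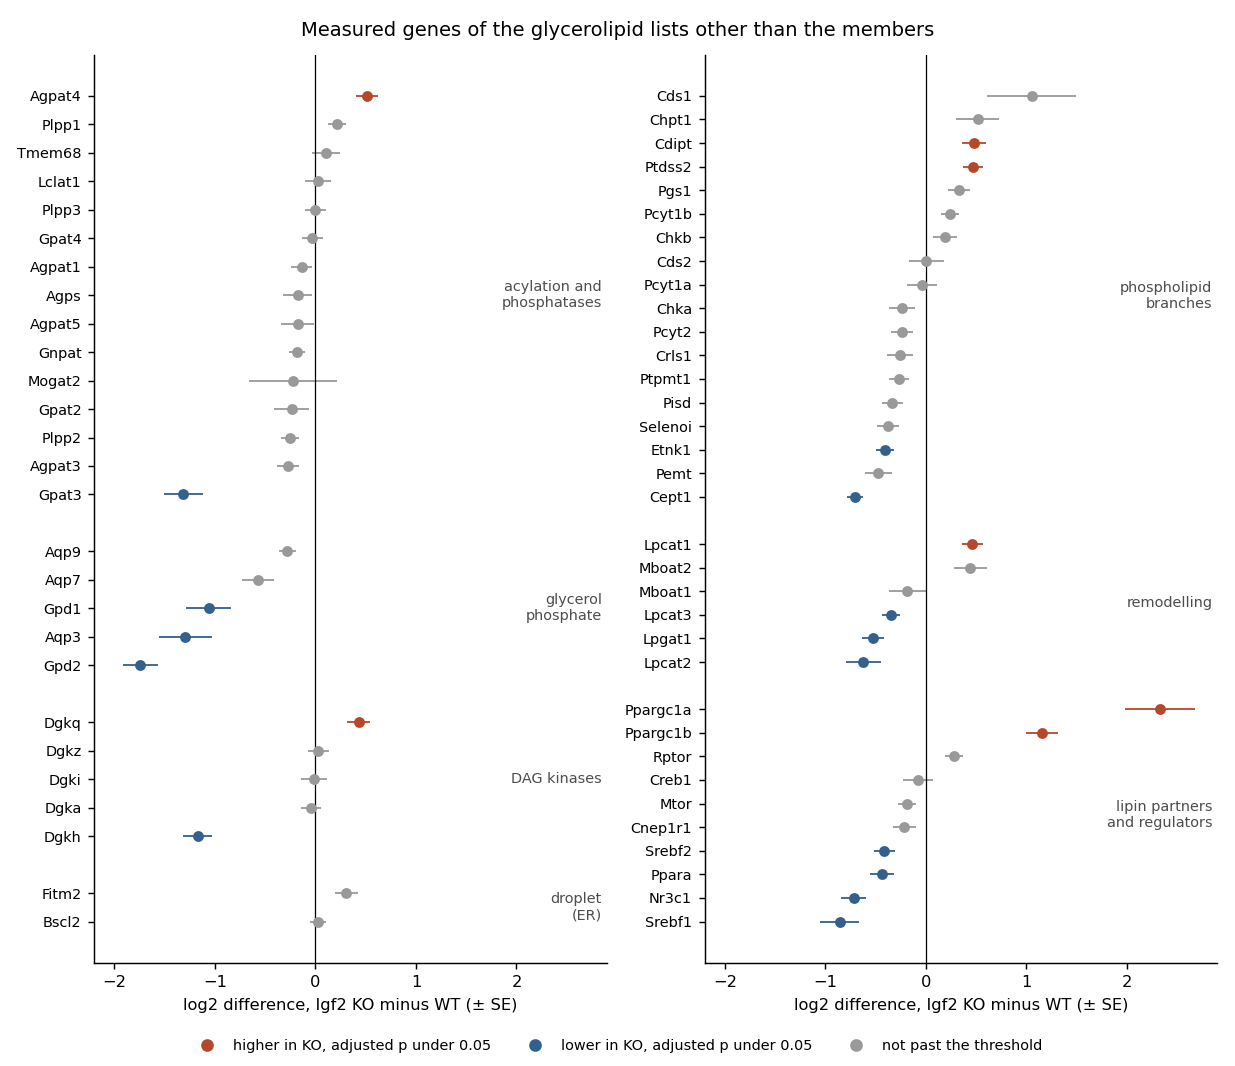
Log2 difference of Igf2 KO minus WT (horizontal axis, bars are limma's SE) for the 61 measured genes of 7 lists around triglyceride assembly, without the members. Colour marks genes past an adjusted p of 0.05, 7 higher and 14 lower in the knockout.

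Of 5 measured genes of glycerol and glycerol phosphate handling, 3 fell. Gpd2, the mitochondrial dehydrogenase that oxidises glycerol phosphate and so removes it, had signals of 517.0, 436.9 and 594.6 in Igf2 KO, against 1848.2, 1389.6 and 2083.6 in WT. It fell by 1.74 ± 0.17 on the log2 scale (SE, limma adjusted p = 0.001), to well under the lowest WT array on each knockout array. Gpd1, the cytosolic dehydrogenase that makes glycerol phosphate from a glycolytic intermediate, had 209.2, 167.7 and 217.5 in Igf2 KO, against 586.9, 300.2 and 444.7 in WT, and fell by 1.06 ± 0.22 (limma adjusted p = 0.019). Aqp3, a channel for water and glycerol, had 308.0, 158.3 and 276.7 in Igf2 KO, against 540.1, 514.6 and 809.4 in WT, and fell by 1.29 ± 0.26 (limma adjusted p = 0.016). The other 2 measured genes, Aqp7 and Aqp9, are glycerol channels too and had -0.57 ± 0.16 and -0.28 ± 0.086 without passing. In this list 3 of 5 fell and 0 rose (5 lower and 0 higher at an unadjusted limma p under 0.05), with a median of -1.06, where 8.49% of all genes fell, 8.23% rose and the median was 0.022. The Gpd1 call was lost without knockout array 1 or 2 (limma adjusted p up to 0.059 with 1 array left out).

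Of 15 other genes of acylation and dephosphorylation along the pathway, 1 fell and 1 rose (13.3%, where 16.7% of all genes were called), with a median log2 difference of -0.18. Gpat3, an acyltransferase of the endoplasmic reticulum for the same step as Gpam, had signals of 334.4, 256.1 and 311.6 in Igf2 KO, against 896.3, 556.7 and 903.0 in WT. It fell by 1.31 ± 0.20 (SE, limma adjusted p = 0.005) and the groups did not overlap. Gpat4, a further isoform of this step, had -0.031 ± 0.11. Agpat4, a relative of Agpat2, had 307.3, 338.6 and 369.4 in Igf2 KO, against 242.5, 246.0 and 208.2 in WT, and rose by 0.51 ± 0.11 (limma adjusted p = 0.018). That call was lost without knockout array 3 (limma adjusted p = 0.057, and up to 0.12 over all alternatives). The isoforms Agpat1, Agpat3 and Agpat5 had -0.14, -0.28 and -0.18 and did not pass. Plpp1, Plpp2 and Plpp3, which encode phosphatases of the plasma membrane that can also act on phosphatidic acid, had 0.22, -0.25 and 0.00011 and did not pass either.

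Of 18 measured genes of the branches that lead from phosphatidic acid and diacylglycerol into phospholipids, 2 rose and 2 fell, with a median log2 difference of -0.14. That is 22.2%, near the 16.7% called among all genes. Cept1, whose enzyme joins diacylglycerol to a choline or ethanolamine headgroup, had signals of 2428.7, 2458.5 and 2336.4 in Igf2 KO, against 3944.4, 3848.8 and 4049.8 in WT. It fell by 0.71 ± 0.080 (SE, limma adjusted p = 0.0017) with tight groups that did not overlap. Etnk1, ethanolamine kinase, fell (-0.41 ± 0.087, limma adjusted p = 0.02), while Ptdss2, a phosphatidylserine synthase (0.47 ± 0.096, 0.017), and Cdipt, phosphatidylinositol synthase (0.47 ± 0.12, 0.034), rose. With the mean of its detected probes Cdipt had 0.35 and lost its call (limma adjusted p = 0.086). Cds1, which diverts phosphatidic acid to CDP-diacylglycerol, had 106.6, 217.3 and 39.4 in Igf2 KO, against 41.3, 39.1 and 40.8 in WT. It was high on knockout arrays 1 and 2, which had the highest lung marker sums, and did not pass (limma adjusted p = 0.14). The part of the lung RNA in this was not tested.

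Diacylglycerol kinases run the lipin reaction backwards. Of 5 measured, Dgkh fell by 1.17 ± 0.14 (SE, limma adjusted p = 0.0022), with signals of 26.7, 34.2 and 28.7 in Igf2 KO against 84.1, 71.2 and 109.0 in WT. Dgkq rose by 0.43 ± 0.11 (limma adjusted p = 0.037), with 1092.3, 1047.3 and 1105.6 in Igf2 KO against 725.7, 760.5 and 926.0 in WT on its brightest probe. With the mean of its detected probes Dgkq had 0.26 and lost its call (limma adjusted p = 0.14). Neither group of arrays overlapped for these genes, and the median of the 5 was -0.014, with 40.0% called against 16.7% of all genes. In acyl chain remodelling, Lpgat1 (-0.53 ± 0.11, limma adjusted p = 0.018), Lpcat3 (-0.35 ± 0.090, 0.038) and Lpcat2 (-0.62 ± 0.17, 0.046) fell and Lpcat1 (0.46 ± 0.10, 0.025) rose. That is 4 of 6 measured genes (66.7%, where 16.7% of all genes were called), with a median of -0.27. Each of these 4 calls was lost with the lung score as a covariate and in at least 1 fit with 1 array left out. Lpcat1 is also an enzyme of lung surfactant synthesis. Its signals were 290.0, 296.3 and 299.1 in Igf2 KO, against 223.7, 182.3 and 228.5 in WT, so the knockout arrays lay close together above WT. The part of lung RNA in this was not tested. Of 2 measured genes for droplet assembly in the endoplasmic reticulum, Bscl2, which encodes seipin, had 0.025 ± 0.081 and Fitm2 0.31 ± 0.11. Limma called 0 of them (1 had an unadjusted p under 0.05, higher).

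Over the 7 lists together, 7 of 61 measured genes rose and 14 fell (34.4%), where 16.7% of all 11346 genes were called in either direction, and the list median was -0.18. The lists were chosen with earlier results of these data known, so nothing is read from that share. With 1 array left out, 8 of these 21 calls held each time, those of Gpd2, Gpat3, Aqp3, Cept1, Dgkh, Ppargc1a, Ppargc1b and Nr3c1. Of these 8, Gpd2 kept its call in all 17 alternatives (limma adjusted p up to 0.048). The other 7 lost it without both knockout arrays 1 and 2, Gpat3, Aqp3 and Ppargc1a also with the lung score as a covariate, and Aqp3 also with the sex score (limma adjusted p up to 0.18). The numbers higher and lower were 3 and 6 without knockout array 1, 4 and 7 without knockout array 2, and 3 and 10 without knockout array 3. They were 3 and 9 without WT array 1, 5 and 9 without WT array 2, and 10 and 14 without WT array 3. Without knockout arrays 1 and 2, which held the most lung transcripts, limma called 0 higher (8 at an unadjusted p under 0.05) and 1 lower (15 unadjusted), with 1 knockout array left. Calls were lost in at least 1 fit with 1 array left out for Gpd1, Agpat4, Etnk1, Ptdss2, Cdipt, Dgkq, Lpgat1, Lpcat1, Lpcat2, Lpcat3, Srebf1, Srebf2 and Ppara (highest limma adjusted p with 1 array out, 0.057 to 0.14). In 17 alternatives 0 of the 21 changed sign. The groups of all 21 did not overlap, so leaving out arrays could hardly reverse a sign, and nothing is read from this.

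**Figure D5:**
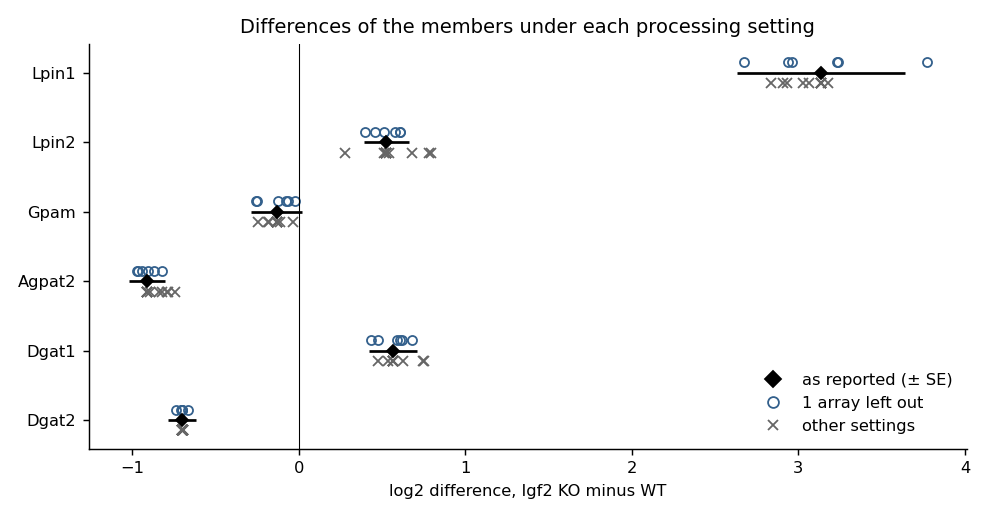
Log2 difference of Igf2 KO minus WT (horizontal axis) for 6 members as reported (diamond, bar is limma's SE), with 1 array left out (circles) and under the other settings (crosses). Lpin1 runs from 2.67 to 3.77 and no member crosses 0.

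The differences of the 6 measured members kept their direction in all 17 alternatives. Apart from Gpam their groups did not overlap, so leaving out arrays could hardly reverse them. With 1 array left out Lpin1 ran from 2.67 (without WT array 3) to 3.77 (without WT array 2), Lpin2 from 0.40 to 0.61, Dgat1 from 0.43 to 0.68, Dgat2 from -0.74 to -0.67, Agpat2 from -0.97 to -0.82 and Gpam from -0.26 to -0.022. Without knockout arrays 1 and 2 Agpat2 had -0.79 ± 0.15, Dgat2 -0.69 ± 0.14 and Dgat1 0.75 ± 0.21 (limma SE).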

How the data were processed

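The labels describe RNeasy total RNA of newborn liver, labelled as biotinylated cRNA for Illumina arrays. The authors deposited probe intensity in a pair of tables that hold the same values, one of them with a detection p-value per probe and array. Those intensities were already background-subtracted and normalized between arrays: 25.0% to 25.1% of values per array were below 0, and sorted values of the 6 arrays differed by at most 0.2. The software is not given in the sources used here. Rows of both tables were joined by their 6 intensities, because IDs differed in 9535 of 45281 rows (4 of the 16 member probes, among them the brighter Lpin1 probe and the Mogat1 probe). For the affected Lpin1 and Gpam probes both IDs belong to the same gene, and for Mogat1 the other ID has no single gene. The annotation gave 34885 probes 1 symbol, 18 several and 10378 none. Between 46.3% and 49.9% of probes per array had a detection p under 0.05.

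Values passed through limma's neqc (version 3.58.1, R 4.3.3; normexp with controls inferred from detection p-values, offset 16, quantile normalization, log2). The offset makes log2 differences of dim genes smaller. The plan assumed unnormalized intensities, and neqc was retained although they proved to be normalized. A probe stayed if its detection p was under 0.05 on 3 or more of the 6 arrays (21958 probes), and the probe with the highest mean stood for each of 11346 genes. Genotypes were compared with lmFit and eBayes, two-sided, with Benjamini-Hochberg adjustment over all genes at 0.05. The code was tested on simulated data. Arrays limit precision by their number, 3 per genotype.

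The members, the 7 lists (74 genes, 73 matched to RefSeq, 61 measured) and the tests were chosen with earlier results of these data known. Named genes are the members, Igf2, up to 4 called genes per direction in each list or the gene with the smallest p, and the 5 nearest Lpin1. Other list genes named beside them were added after their values were seen. Alternatives changed background, offset, filter, probe choice, variance model, array weights, covariates and arrays used. The labels name no slide or scan batch.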

Additional observations from a re-analysis of the deposited data

How the results depend on the processing

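The Lpin1 difference moved by less than 1 replicate SD (0.84 for Lpin1) in all 17 alternatives (2.67 to 3.77), as did those of Gpam, Dgat1 and Dgat2. Much of this was fixed in advance. The filter, variance model and replicate block settings reuse the same group means. Leaving out 1 array of 3 can hardly move a group mean by 1 such SD, which for Lpin1 includes its wide WT spread. Counts of called genes moved more. All genes changed numbered 1897 as reported and 845 to 1894 with 1 array left out. List genes numbered 7 higher, with 3 to 10 when 1 array was left out, and 14 lower, with 6 to 14. The counts of all, higher list and lower list genes were 1156, 4 and 7 with the sex covariate, 591, 2 and 4 with the lung covariate, and 200, 0 and 1 without knockout arrays 1 and 2, where fewer arrays and degrees of freedom remain (limma, with 8 higher and 15 lower list genes at an unadjusted p under 0.05). Array weights gave 3025 changed genes and 11 higher list genes. Deviations of same-numbered arrays correlated at -0.0044, 0.028 and 0.015 over all genes, so no pairing by replicate number was seen. With 3 arrays per genotype this cannot exclude pairing, and Lpin1 was highest on array 2 in both genotypes. With the replicate number as a block, 1323 genes were called in all, 4 list genes were higher and 9 lower, with fewer residual degrees of freedom, and the Lpin1 difference was 3.14 ± 0.30 (SE). The cause of these shifts was not tested. Lpin2 had 0.28 with probe means, which add its dim probes, 0.80 with the lung covariate and 0.78 without knockout arrays 1 and 2. Agpat2 had -0.75 with the lung covariate. Lpin3 and Mogat1 did not pass the filter and have a difference only in the fit over all probes (0.16 and -0.022). Signals near background limit Lpin3, Mogat1 and the dim Lpin2 probes. Knockout signals of Srebf1, Lpcat2 and Dgkh were about as dim as those Lpin2 probes, and those of Nr3c1 little higher. With an offset of 50 their differences were -0.54, -0.38, -0.78 and -0.49. Of these, only Lpcat2 lost its call there (limma adjusted p = 0.056).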
